A study of Homo sapiens with 12 samples.

Results

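A set of 10 transcription regulators that hold a B cell in its mature or germinal centre state, or move it towards the antibody-secreting plasma cell, were followed after knockdown of IRF4. The members were chosen by name (BCL6, BACH2, PRDM1, PAX5, EBF1, TCF3, POU2F2, POU2AF1, FOXP1 and MEF2C), and all 10 were found among the 26318 genes of the deposited count table and were among the 16437 genes tested. Messenger RNA was measured in TMD8, an established human lymphoma line of the ABC (activated B cell) class of diffuse large B cell lymphoma. There were 6 libraries from TMD8 cells treated with an shRNA (a short hairpin RNA that lowers its target's messenger RNA) against IRF4, and 6 from TMD8 cells treated with a scramble shRNA as control. All pellets were taken at 24 h, and the start of that interval was not given in the labels.

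Library names carried a number 1 or 2, called library series 1 and 2 here, with 3 IRF4 shRNA and 3 control libraries in each. Whether it stood for a hairpin, a culture or a batch is not stated in the labels, and neither is the hairpin sequence. The data come from a single cell line, and no label says whether replicates were grown as separate cultures. The p-values then describe only how far these libraries spread, which may be technical. Every title gave TMD8, although the number in the cell line field went up by sample, and TMD8 was used throughout.

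BCL6 and PRDM1 (which encodes BLIMP1) are the textbook pair of opposing repressors of this decision: BCL6 keeps germinal centre B cells from differentiating, and BLIMP1 shuts down the B cell programme in plasma cells. PAX5, EBF1 and the E protein TCF3 install and keep B cell identity, BACH2 holds back PRDM1, and POU2F2 (OCT2) with its coactivator POU2AF1 (OCA-B) acts at octamer sites of immunoglobulin and other B cell genes. IRF4 is itself a regulator of plasma cell differentiation that can also act on BCL6 and PRDM1, and ABC lymphomas are known for high IRF4.

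Total counts were 31.9 to 38.2 M per IRF4 shRNA library and 31.3 to 36.0 M per control library (M, 1e6 counts). Levels are counts per 1e6 counts on TMM-scaled library sizes (CPM), and 3 counts corresponded to 0.0763 to 0.0981 CPM. IRF4, the target, read 507, 608 and 716 CPM (lowest, median and highest) in IRF4 shRNA libraries, against 1427, 1469 and 1571 CPM in controls, without overlap. Its log2 fold change was -1.28 (SE 0.09, edgeR adjusted p = 1.41e-08), and p was 0.00216 in a two-sided exact permutation of the libraries, as low as 6 against 6 allows. It stood at 47.9% of the control level in series 2 and at 34.7% in series 1 (edgeR adjusted p of the difference between series = 0.0011). The summed level of 6 B cell markers was 5333 to 5641 CPM in IRF4 shRNA libraries and 3583 to 4054 CPM in controls, each marker being above 1 CPM in every library. Of the 6, 4 rose (24.2% of all genes), BLK fell (23.9%) and CD79B did not pass the edgeR test. The 2 T cell markers of 5 that the table held summed to under 1 CPM in every library, and 4 myeloid markers to 1.07 to 1.75 CPM with IRF4 shRNA and 0.381 to 1.11 CPM in controls, MPO being at 0 in every library. ITGAM, the only myeloid marker with enough counts to test, averaged 1.16 CPM with IRF4 shRNA and 0.285 CPM in controls (log2 2.01, edgeR adjusted p = 1.28e-06). Epithelial and stromal markers summed to 26.1 to 39.0 CPM with IRF4 shRNA and 64.6 to 81.8 CPM in controls, most of it CDH1, the E-cadherin gene, while EPCAM stayed under 1 CPM. The part of these markers in the results was not tested. In bulk RNA, a change in the number of cells of a state and a change in RNA per cell cannot be told apart.

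The libraries also differed in how counts ran with transcript GC content. Spearman's rho across genes, which are not independent replicates, between GC and deviation from the group mean was -0.33 to -0.19 in IRF4 shRNA libraries of series 2 and 0.24 to 0.31 in those of series 1. Controls 4, 5 and 6, all of series 2, had -0.35, 0.42 and 0.60, and controls of series 1 had -0.50 to -0.05. For the regulators, values with each library's GC trend removed are therefore also given where they change a call or move a called value by over 1.5 times.

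**Figure D1:**
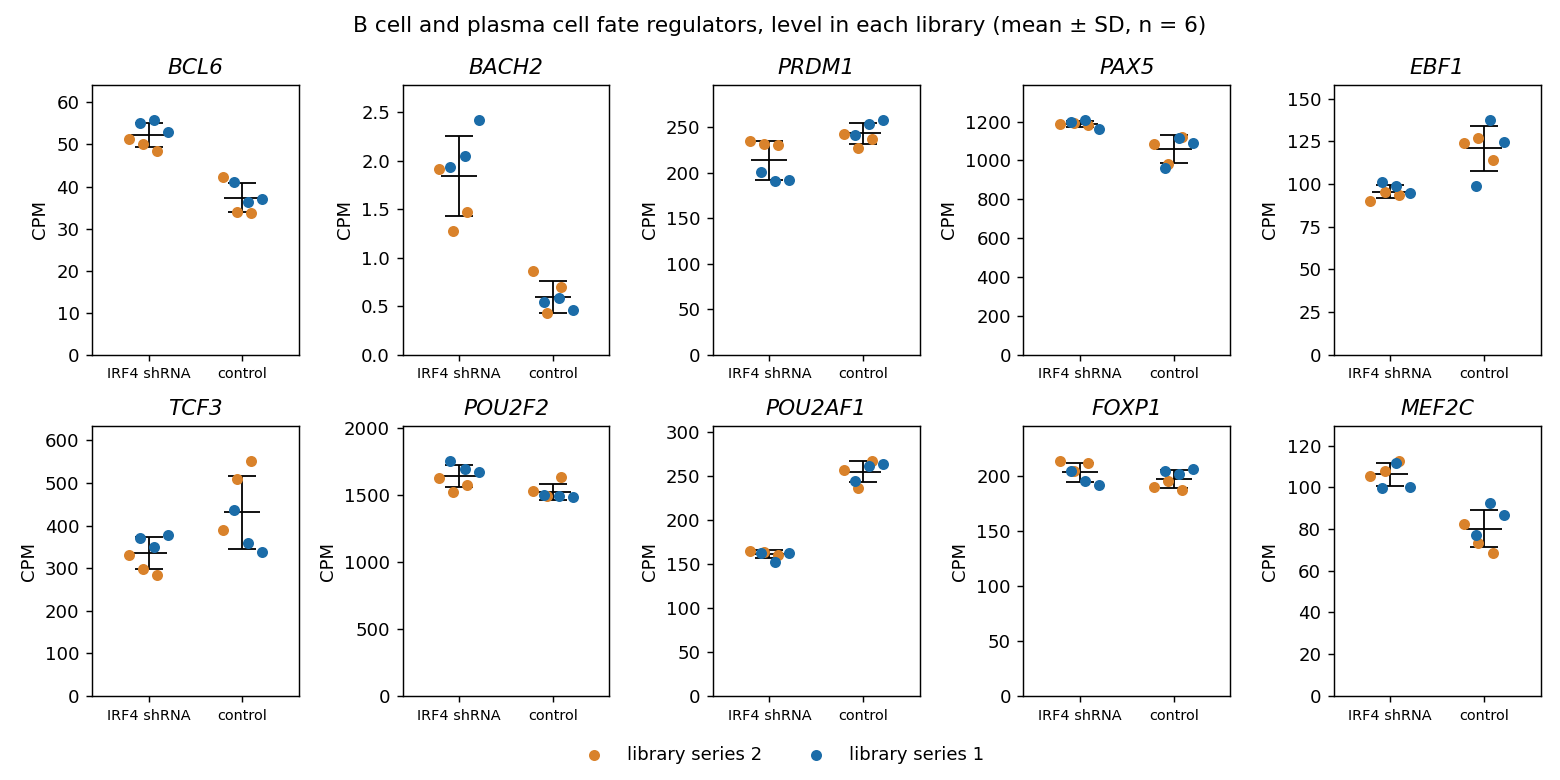
Level of each of the 10 regulators in CPM (y axis, a separate scale per gene) in every IRF4 shRNA library and every control, split by library series. BCL6, BACH2, PAX5 and MEF2C lie above all controls in every IRF4 shRNA library, and POU2AF1 lies below all controls.

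Over all 12 libraries, 9 of the 10 regulators passed the test between IRF4 shRNA and control (edgeR quasi-likelihood test, Benjamini-Hochberg adjusted p under 0.05 over 16437 genes). BACH2, BCL6, MEF2C, PAX5 and POU2F2 were higher with IRF4 shRNA, and POU2AF1, TCF3, EBF1 and PRDM1 were lower. FOXP1 did not pass. Of all genes tested 48.2% passed, 24.2% upward and 23.9% downward, so a call by itself sets a gene apart little in these data. The median log2 fold change of the 10 was 0.08, beside -0.01 over all genes, and their median absolute change was 0.35, beside 0.22. BACH2 was the only member that changed by 2-fold or more, beside 8.39% of all genes. In 5 of the 10 the groups did not overlap, beside 30.8% of all genes: 4 lay above all controls (16.2% of all genes) and 1 below (14.7%).

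**Figure D2:**
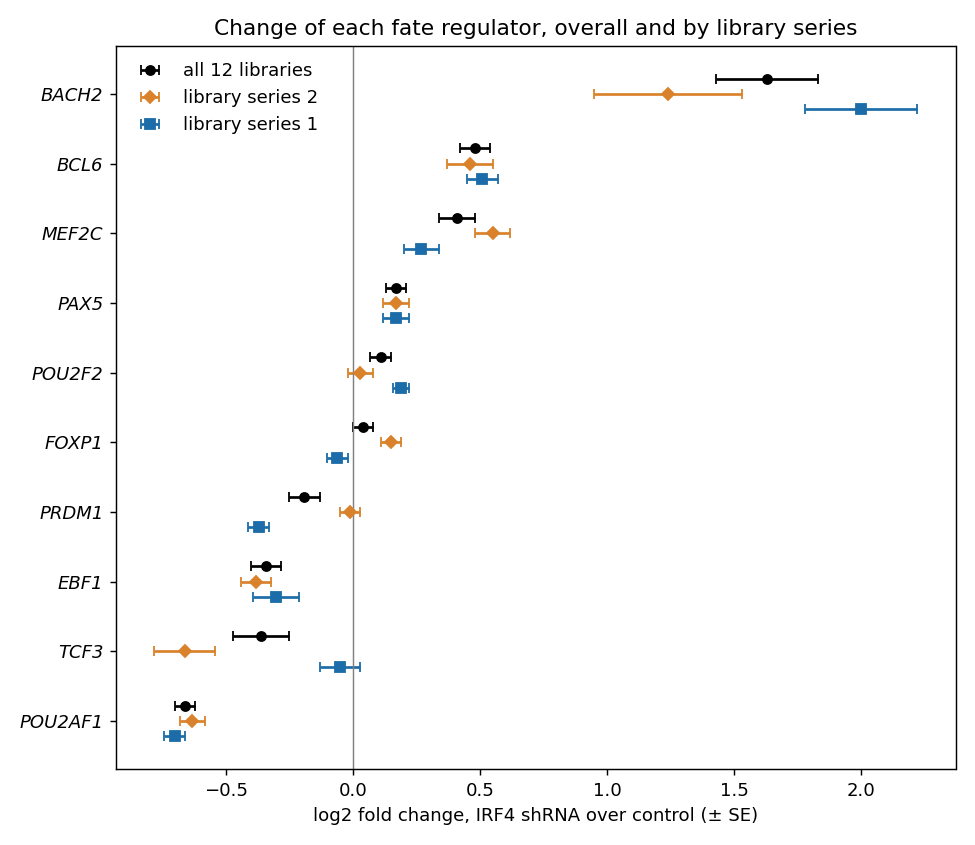
Log2 fold change (IRF4 shRNA over control, x axis) with its SE for each regulator over all libraries and within library series 2 and 1. POU2AF1, BCL6, BACH2, PAX5, EBF1 and MEF2C pass the test in the same direction in both series. PRDM1 sits at -0.01 in series 2, where it does not pass, and at -0.37 in series 1.

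BCL6, the germinal centre repressor, stood above all controls in every IRF4 shRNA library. The locus is chr3:187721377-187745725 on the minus strand (hg38). Its levels were 48.5, 52.1 and 55.8 CPM (lowest, median and highest) in IRF4 shRNA libraries, against 33.7, 36.7 and 42.2 CPM in controls. The fold change was 1.40, or 0.48 on the log2 scale (SE 0.06, edgeR adjusted p = 1.02e-05, n = 6 each). In series 2 it read 51.3, 50.2 and 48.5 CPM with IRF4 shRNA, against 42.2, 34.0 and 33.7 CPM in controls. In series 1 it read 55.2, 55.8 and 52.9 CPM with IRF4 shRNA, against 41.1, 36.2 and 37.1 CPM in controls. The rise passed the test in series 2 (log2 fold change 0.46, edgeR adjusted p = 0.00349) and in series 1 (0.51, edgeR adjusted p = 1.59e-05). The difference between the series was -0.07 (SE 0.11, edgeR adjusted p = 0.709). Without control replicates 5 and 6 together, which leaves 1 control in series 2, the series 2 change was 0.25 (edgeR adjusted p = 0.00558) and the difference between series -0.28 (edgeR adjusted p = 0.153).

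Promoter windows of 300 bases (250 before to 50 after the annotated start) were available from RefSeq, build GRCh38.p14, for 9 of the 10 members in 22 windows, all but POU2AF1. Each was searched on both strands for 5 motifs: the ETS-IRF composite element (GGAA and GAAA with any 2 bases between), which IRF4 is known to bind with an ETS partner (2.82% of 35116 promoters of the same length), the interferon response element (GAAA repeated with any 2 bases between, 3.57%), a BLIMP1 motif nested in it whose first spacer base is G (1.06%), a BCL6 motif TTCCTNGAA (1.56%) and the octamer ATGCAAAT (1.77%). Matches occurred in 3 windows. Of these, 2 are shown, with the matched letters in capitals. The first is chr3:187745419-187745718 (minus strand), where a BCL6 motif on the opposite strand begins 36 bases after the start of BCL6. The second is chr5:159097907-159098206 (minus strand), where an ETS-IRF element begins 33 bases before the start of EBF1.
BCL6 promoter: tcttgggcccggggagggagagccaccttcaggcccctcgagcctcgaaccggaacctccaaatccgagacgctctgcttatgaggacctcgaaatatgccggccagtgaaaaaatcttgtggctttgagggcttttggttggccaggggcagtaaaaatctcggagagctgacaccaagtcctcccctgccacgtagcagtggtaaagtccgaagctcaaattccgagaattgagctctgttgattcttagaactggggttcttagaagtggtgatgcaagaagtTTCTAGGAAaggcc
EBF1 promoter: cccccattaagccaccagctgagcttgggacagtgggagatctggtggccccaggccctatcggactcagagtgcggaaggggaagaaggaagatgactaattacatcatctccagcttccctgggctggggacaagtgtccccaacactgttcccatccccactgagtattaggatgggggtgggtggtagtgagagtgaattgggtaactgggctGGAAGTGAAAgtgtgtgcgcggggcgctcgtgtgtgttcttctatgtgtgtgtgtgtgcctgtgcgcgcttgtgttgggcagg
The third was an octamer, read as ATTTGCAT, that began 60 bases before a start of MEF2C. A match describes letters in the window and is neither a binding site nor a cause, and binding was not measured.

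BACH2, a repressor that delays plasma cell differentiation, showed the steepest change of the 10, at few counts. The locus is chr6:89926528-90296908 on the minus strand (hg38). Counts ran from 47 to 86 per IRF4 shRNA library and from 14 to 27 per control. In CPM the lowest, median and highest were 1.28, 1.93 and 2.42 with IRF4 shRNA, against 0.429, 0.561 and 0.858 in controls, without overlap. The fold change was 3.09 (log2 1.63, SE 0.20, edgeR adjusted p = 7.98e-06, n = 6 each), and 3.61% of genes tested changed by at least as much in absolute terms. In series 2 it averaged 1.56 ± 0.327 CPM with IRF4 shRNA and 0.661 ± 0.217 CPM in controls, and in series 1 2.14 ± 0.248 CPM with IRF4 shRNA and 0.527 ± 0.0636 CPM in controls (SD, n = 3 each). Series 2 passed at a log2 fold change of 1.24 (edgeR adjusted p = 0.00955) and series 1 at 2.0 (edgeR adjusted p = 1.54e-05). The difference between them did not pass (-0.78, SE 0.37, edgeR adjusted p = 0.162). Without control replicates 5 and 6 together, series 2 held 1 control and gave 0.86 (edgeR adjusted p = 0.0767), the lone control being assumed to vary like the other libraries.

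PRDM1, the driver of plasma cell differentiation, fell slightly over all libraries, and its fall stood in 1 of the 2 library series. The locus is chr6:105993463-106109939 on the plus strand (hg38). In series 2 it read 235, 232 and 230.3 CPM with IRF4 shRNA, against 242, 227 and 237 CPM in controls, or -0.01 on the log2 scale (SE 0.04, edgeR adjusted p = 0.893, n = 3 each). In series 1 it read 201, 191 and 192 CPM with IRF4 shRNA, against 242, 254 and 258 CPM in controls, or -0.37 on the log2 scale (SE 0.04, edgeR adjusted p = 7.99e-06, n = 3 each). The groups overlapped in series 2 and were apart in series 1. The difference between series was itself called at 0.35 on the log2 scale (SE 0.06, edgeR adjusted p = 0.00549), or 0.30 with the GC trend removed (edgeR adjusted p = 0.00247). It was called under all 18 alternatives, with edgeR or DESeq2 adjusted p of 2.03e-06 to 0.0226. With IRF4 shRNA, IRF4 itself averaged 703 ± 13.3 CPM in series 2 and 519 ± 10.3 CPM in series 1 (SD, n = 3 each). With only these 2 series, the depth of knockdown and any other property of a series cannot be told apart.

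Over all libraries PRDM1 averaged 213 ± 20.9 CPM with IRF4 shRNA and 243 ± 11.2 CPM in controls, or -0.19 on the log2 scale (SE 0.06, edgeR adjusted p = 0.0146, n = 6 each). This call was lost when counts were scaled by library size alone (-0.11, edgeR adjusted p = 0.121), which put the median of all genes at 0.07. It was also lost with replicates blocked by title number. Across the alternatives the edgeR or DESeq2 adjusted p was 0.00127 to 0.121. ATG5, an autophagy gene on the opposite strand that overlaps PRDM1, held 6.85% as many counts as PRDM1, and the use of strand in counting was not stated.

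**Figure D3:**
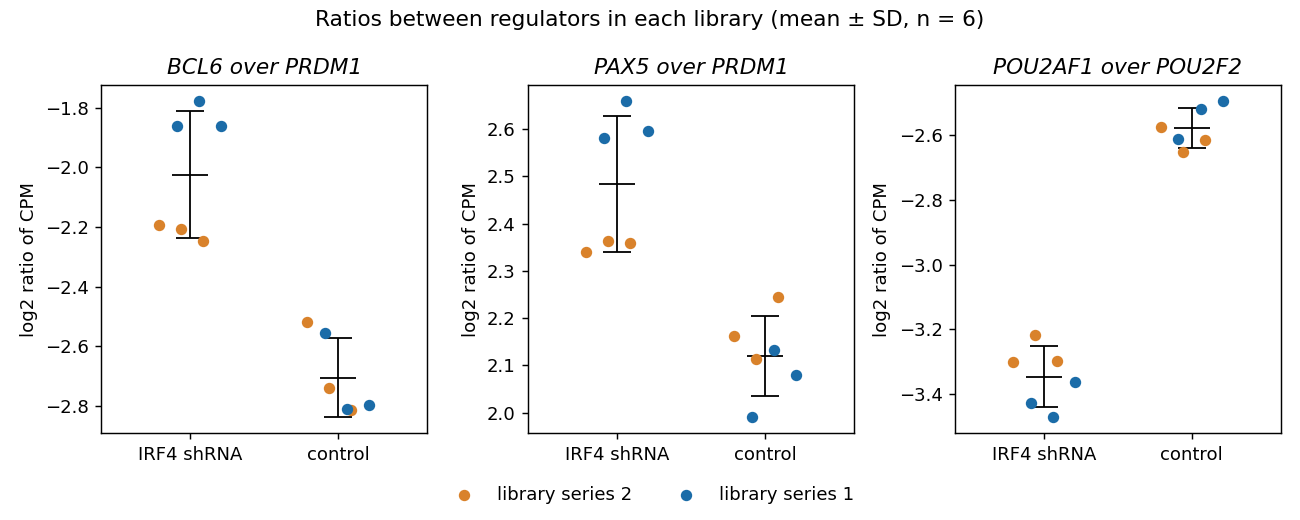
Log2 ratios (y axis) of the CPM of 3 pairs of regulators in each IRF4 shRNA library and each control, coloured by library series, with the mean and SD of each group. BCL6 over PRDM1 and PAX5 over PRDM1 lie above all controls in every IRF4 shRNA library, and POU2AF1 over POU2F2 lies below all controls.

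Set against each other within a library, the ratios of BCL6, BACH2 and PAX5 to PRDM1 were all higher with IRF4 shRNA. The log2 ratio of BCL6 to PRDM1 levels averaged -2.02 ± 0.21 with IRF4 shRNA and -2.71 ± 0.13 in controls (SD, n = 6 each), and every IRF4 shRNA library was above every control. The gap between the groups was 0.47 in series 2 and 0.89 in series 1. The log2 ratio of BACH2 to PRDM1 averaged -6.88 ± 0.45 with IRF4 shRNA and -8.72 ± 0.38 in controls, and that of PAX5 to PRDM1 averaged 2.48 ± 0.14 with IRF4 shRNA and 2.12 ± 0.08 in controls. Neither overlapped between the groups. The gap for BACH2 to PRDM1 was 1.29 in series 2 and 2.39 in series 1, and that for PAX5 to PRDM1 was 0.18 in series 2 and 0.54 in series 1. PRDM1 itself was at -0.01 in series 2. The log2 ratio of TCF3 to EBF1 averaged 1.8 ± 0.15 with IRF4 shRNA and 1.82 ± 0.37 in controls, with overlap. These ratios reuse the levels above and are descriptions.

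PAX5, the guardian of B cell identity, was slightly higher with IRF4 shRNA. The locus is chr9:36833269-37034268 on the minus strand (hg38). The lowest, median and highest levels were 1162, 1190.2 and 1208 CPM with IRF4 shRNA, against 960, 1087 and 1123 CPM in controls. The groups did not overlap, and controls spread more widely, with replicates 1 and 5 at 960 and 982 CPM. The fold change was 1.12 (log2 0.17, SE 0.04, edgeR adjusted p = 0.00277, n = 6 each), or 0.11 on the log2 scale with the GC trend removed (edgeR adjusted p = 0.0254). The change was 0.17 in series 2 (edgeR adjusted p = 0.0277) and 0.17 in series 1 (edgeR adjusted p = 0.0141). In series 2 the call was lost without IRF4 shRNA replicate 4, 5 or 6 (0.17 to 0.18, edgeR adjusted p = 0.0824 to 0.0959), without control replicate 5 (0.10, edgeR adjusted p = 0.102) and by DESeq2 (0.16, adjusted p = 0.0532). Blocking replicates by title number also removed the series 2 call. In series 1 it was lost without IRF4 shRNA replicate 1 or 2 (0.16 each, edgeR adjusted p = 0.0519 and 0.0514) and with the GC trend removed (0.08, edgeR adjusted p = 0.241).

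EBF1, the early B cell factor that acts with PAX5, was lower with IRF4 shRNA, the opposite direction from PAX5. The locus is chr5:158695916-159099916 on the minus strand (hg38). Levels were 90.1, 94.8 and 101 CPM with IRF4 shRNA, against 98.9, 124 and 137 CPM in controls (lowest, median and highest), and control replicate 1 at 98.9 CPM was the only control inside the IRF4 shRNA range. The log2 fold change was -0.34 (SE 0.06, edgeR adjusted p = 0.000418, n = 6 each). It was -0.38 in series 2 (edgeR adjusted p = 0.00101), where the groups were apart, and -0.30 in series 1 (edgeR adjusted p = 0.0168). The series 1 call was lost without control replicate 2 (-0.19, edgeR adjusted p = 0.0809), without IRF4 shRNA replicate 2 or 3 (-0.30 and -0.27, edgeR adjusted p = 0.0548 and 0.0736) and with library size alone (-0.22, edgeR adjusted p = 0.0593). Series 2 minus series 1 gave -0.10 (edgeR adjusted p = 0.646), or -0.21 with the GC trend removed (edgeR adjusted p = 0.232), where series 2 stood at -0.47 and series 1 at -0.26.

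TCF3, which encodes the E2A proteins that drive B lineage genes, was lower with IRF4 shRNA over all libraries, and its value changed when the libraries' GC trends were removed. The locus is chr19:1609290-1652615 on the minus strand (hg38), and its longest transcript had the highest GC content of the 10 at 61.2%. Levels were 285.0, 339.9 and 378 CPM with IRF4 shRNA, against 338, 414 and 551 CPM in controls (lowest, median and highest). The groups overlapped, and control replicates 5 and 6, those with the strongest upward GC trend, were the highest at 509 and 551 CPM. The log2 fold change was -0.36 (SE 0.11, edgeR adjusted p = 0.0164, n = 6 each). In series 2 it was -0.66 (edgeR adjusted p = 0.00274), and in series 1 it was -0.05 (edgeR adjusted p = 0.612).

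With the GC trend removed, TCF3 fell in series 2 by 0.58 (edgeR adjusted p = 3.19e-06) and in series 1 by 0.42 (edgeR adjusted p = 4.51e-07). The difference between series was -0.62 as counted (SE 0.16, edgeR adjusted p = 0.0221) and -0.18 with the trend removed (edgeR adjusted p = 0.121). Without control replicates 5 and 6 together the series 2 change was -0.36 (edgeR adjusted p = 6.29e-05), that over all libraries -0.19 (edgeR adjusted p = 0.0817), and the difference between series -0.32 (edgeR adjusted p = 0.269). The call over all libraries was also lost with replicates blocked by title number or by library name number. It was lost too without IRF4 shRNA replicate 5 or 6 (-0.32 and -0.30, edgeR adjusted p = 0.0521 and 0.0535). Across alternatives that value ran from -0.49 to -0.19, with edgeR or DESeq2 adjusted p from 5.15e-08 to 0.0817. The call of the difference between series was lost in 8 of 12 fits that left out 1 library, those without IRF4 shRNA replicate 1, 3, 5 or 6 or control replicate 2, 3, 5 or 6 (-0.62 to -0.52, edgeR adjusted p = 0.0511 to 0.0726).

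**Figure D4:**
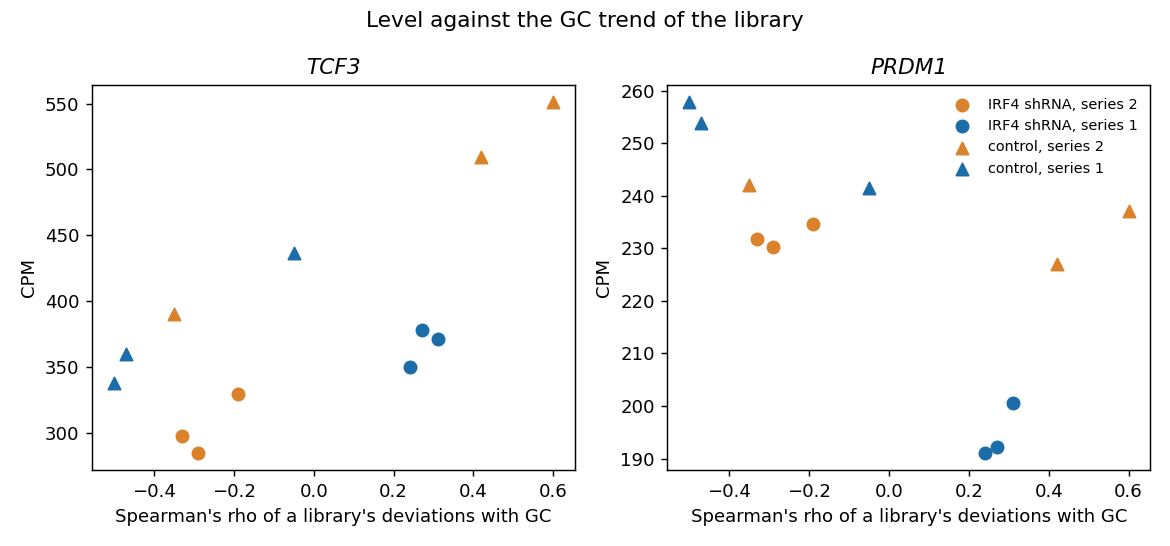
Level of TCF3 and of PRDM1 in CPM (y axes, not from 0) in each library against that library's GC trend, Spearman's rho of its deviations with transcript GC (x axis). For TCF3 the controls with a rho of 0.42 and 0.60 are the highest, at 509 and 551 CPM, and for PRDM1 the IRF4 shRNA libraries of series 1 lie apart at 191 to 201 CPM.

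POU2AF1 and POU2F2, the octamer pair, went in opposite directions. POU2AF1, the B cell coactivator, is at chr11:111352255-111455630 on the minus strand (hg38). It read 153, 163 and 165 CPM with IRF4 shRNA, against 237, 259 and 267 CPM in controls (lowest, median and highest), with every IRF4 shRNA library below every control. It was 1.58-fold lower (log2 -0.66, SE 0.04, edgeR adjusted p = 8.3e-10, n = 6 each), the smallest p of the 10. The change was -0.63 in series 2 (edgeR adjusted p = 2.8e-05) and -0.70 in series 1 (edgeR adjusted p = 7.04e-08), and the difference between them was 0.05 (SE 0.07, edgeR adjusted p = 0.654).

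POU2F2, which encodes OCT2, is at chr19:42086110-42196585 on the minus strand (hg38). It read 1526, 1650.2 and 1753 CPM with IRF4 shRNA, against 1487, 1497 and 1635 CPM in controls (lowest, median and highest), and the groups overlapped. The log2 fold change was 0.11 (SE 0.04, edgeR adjusted p = 0.0261, n = 6 each). The call was lost with the GC trend removed (0.04, edgeR adjusted p = 0.224) and without control replicate 1, 2, 3 or 5 (0.10 each, edgeR adjusted p = 0.0505 to 0.0541). Blocking replicates by title number or by library name number also removed the call. In series 2 it averaged 1577 ± 52.0 CPM with IRF4 shRNA and 1553 ± 73.8 CPM in controls (log2 0.03, edgeR adjusted p = 0.615). In series 1 it averaged 1707 ± 41.7 CPM with IRF4 shRNA and 1494 ± 5.68 CPM in controls (log2 0.19, edgeR adjusted p = 0.000425, n = 3 each), or 0.07 with the GC trend removed (edgeR adjusted p = 0.0948). Between series it differed by -0.17 (SE 0.06, edgeR adjusted p = 0.0627). The value was -0.18 without control replicate 4 (edgeR adjusted p = 0.0248) and -0.07 with the GC trend removed (edgeR adjusted p = 0.422). Antisense AC010247.2 and AC010247.1 overlap POU2F2 and held 2.44% and 1.41% as many counts. The log2 ratio of POU2AF1 to POU2F2 was -3.35 ± 0.09 with IRF4 shRNA and -2.58 ± 0.06 in controls (SD, n = 6 each), without overlap.

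MEF2C, a MADS-box factor downstream of the B cell receptor, stood above all controls in every IRF4 shRNA library. The locus is chr5:88717117-88904257 on the minus strand (hg38). Levels were 99.8, 107 and 113 CPM with IRF4 shRNA, against 68.5, 79.9 and 92.7 CPM in controls (lowest, median and highest). The fold change was 1.33 (log2 0.41, SE 0.07, edgeR adjusted p = 0.000118, n = 6 each). It was 0.55 in series 2 (edgeR adjusted p = 0.000359) and 0.27 in series 1 (edgeR adjusted p = 0.00502). Between series it differed by 0.26 (SE 0.11, edgeR adjusted p = 0.116), and by 0.33 and 0.34 without control replicate 1 or 4 (edgeR adjusted p = 0.0375 and 0.011). It was 0.12 without control replicates 5 and 6 together (edgeR adjusted p = 0.675) and 0.11 with the GC trend removed (edgeR adjusted p = 0.441), where series 2 stood at 0.45 and series 1 at 0.34. The longest transcript of MEF2C had the lowest GC content of the 10 at 39.0%. The antisense MEF2C-AS1 held 1.7% as many counts as MEF2C.

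FOXP1, a forkhead factor of mature B cells that is often high in ABC lymphoma, was the regulator that did not pass over all libraries. The locus is chr3:70952817-71583989 on the minus strand (hg38). It read 192, 205 and 214 CPM with IRF4 shRNA, against 188, 199 and 207 CPM in controls (lowest, median and highest), with wide overlap. The log2 fold change was 0.04 (SE 0.04, edgeR adjusted p = 0.365, n = 6 each), and 0.12 with library size alone (edgeR adjusted p = 0.0216). In series 2 it was 0.15 (SE 0.04, edgeR adjusted p = 0.0292), with 205 to 214 CPM in IRF4 shRNA libraries and 188 to 196 CPM in controls. In series 1 it was -0.06 (edgeR adjusted p = 0.219). The series 2 call was lost without IRF4 shRNA replicate 4, 5 or 6 or control replicate 5 or 6 (0.12 to 0.17, edgeR adjusted p = 0.0527 to 0.119), with the GC trend removed (0.05, edgeR adjusted p = 0.438), with no filter on low counts (0.15, edgeR adjusted p = 0.0513) and by DESeq2 (0.14, adjusted p = 0.0589). Blocking replicates by title number also removed it. Series 2 minus series 1 gave 0.19 (SE 0.05, edgeR adjusted p = 0.0361). It was 0.06 with the GC trend removed (edgeR adjusted p = 0.623), and the call was lost in 10 of 12 fits that left out 1 library, all but those without control replicate 1 or 4 (0.16 to 0.21, edgeR adjusted p = 0.0517 to 0.101).

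Within the series alone, 8 of the 10 regulators passed in series 2, beside 38.1% of all genes, with 5 higher (20.2% of all genes) and 3 lower (17.9%). In series 1, 8 of 10 passed, beside 50.5% of all genes, again 5 higher (25.8%) and 3 lower (24.6%). The groups did not overlap for 8 regulators in series 2 (50.3% of all genes) and for 7 in series 1 (58.2%). PRDM1 and POU2F2 did not pass in series 2, and TCF3 and FOXP1 did not pass in series 1. The difference between series was called for 3 of the 10, PRDM1, TCF3 and FOXP1, beside 14% of all genes. The signed log2 fold change was higher in series 2 for PRDM1 (-0.01, against -0.37 in series 1) and FOXP1 (0.15, against -0.06), beside 5.07% of all genes. For TCF3 it was lower in series 2 (-0.66, against -0.05 in series 1), beside 8.97%. That background was itself unsteady, at 736 genes without IRF4 shRNA replicate 6 and 5357 without control replicate 4, the extremes over single libraries left out, against 2308 with all. In the same fits 1 to 5 regulators were called, with 5 without control replicate 4, and of the 3 only the PRDM1 call was kept in all of them. BCL6, BACH2, PAX5, EBF1, POU2AF1 and MEF2C passed in both series in the same direction.

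Per length of exon, POU2F2, PAX5 and TCF3 stood highest in both groups. In CPM per kb of the union of exons, POU2F2 stood at 181 with IRF4 shRNA and 168 in controls, and PAX5 at 127 with IRF4 shRNA and 113 in controls. TCF3 followed at 55.2 with IRF4 shRNA and 70.9 in controls, PRDM1 at 33.4 with IRF4 shRNA and 38.1 in controls, and POU2AF1 at 21.7 with IRF4 shRNA and 34.4 in controls. The ranges of PRDM1 and POU2AF1 touched in controls (35.5 to 40.3 and 32.0 to 36.0 CPM per kb) and were apart with IRF4 shRNA (29.9 to 36.7 and 20.6 to 22.3 CPM per kb). EBF1 came next at 15.5 with IRF4 shRNA and 19.6 in controls. MEF2C and BCL6, at 9.04 and 8.81 CPM per kb with IRF4 shRNA and 6.82 and 6.30 in controls, overlapped in their ranges within each group. FOXP1 stood at 5.55 with IRF4 shRNA and 5.39 in controls, and BACH2 was last at 0.189 with IRF4 shRNA and 0.0607 in controls. IRF4 stood at 104 CPM per kb in IRF4 shRNA libraries, below PAX5, and at 251.1 in controls, above all 10. By the longest transcript instead of the union of exons, POU2AF1 moved above PRDM1 in both groups, and FOXP1 moved up next to EBF1, with 21.3 to 23.8 CPM per kb with IRF4 shRNA and 20.9 to 23.0 in controls.

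**Figure D5:**
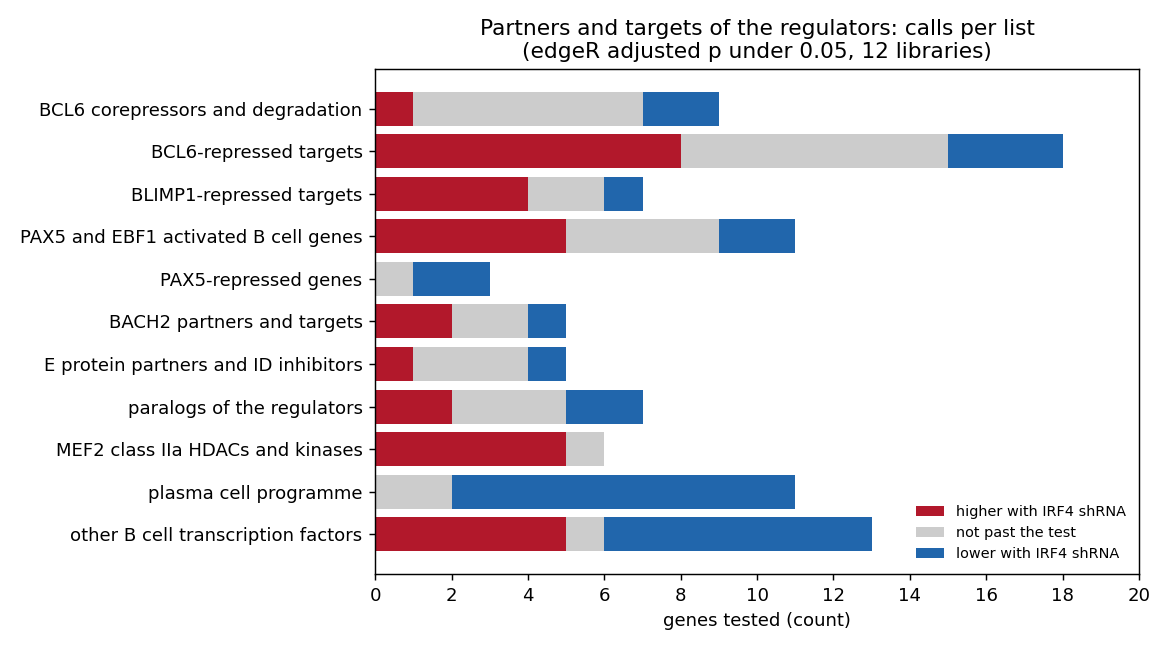
Number of tested genes (x axis) of each list around the regulators that were higher with IRF4 shRNA, did not pass the test, or were lower with IRF4 shRNA. In the plasma cell programme 9 of 11 are lower and 0 higher, and among class IIa HDACs and kinases of MEF2 5 of 6 are higher and 0 lower.

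Around PRDM1, 9 plasma cell genes fell and 4 genes that BLIMP1 is known to repress rose. In the plasma cell programme 9 of 11 genes fell and none rose (23.9% of all genes fell), with a median of -0.83 beside -0.01 over all genes. In series 2 alone, where PRDM1 was at -0.01 and did not pass, 8 fell (17.9% of all genes). In series 1 alone, where PRDM1 was at -0.37, 9 fell (24.6%). TNFRSF17, the plasma cell survival receptor BCMA, averaged 2.70 ± 1.19 CPM with IRF4 shRNA and 17.3 ± 1.76 CPM in controls (log2 -2.66, edgeR adjusted p = 9.68e-08, n = 6 each). XBP1, the secretory stress factor, averaged 41.4 ± 5.09 CPM with IRF4 shRNA and 77.9 ± 6.74 CPM in controls (log2 -0.91, edgeR adjusted p = 1.9e-07). ELL2, an elongation factor of immunoglobulin secretion, fell by 1.05 (edgeR adjusted p = 6.97e-09), and CREB3L2, a secretory pathway factor, by 1.12 (edgeR adjusted p = 6.53e-08). SLAMF7 and ATF6 did not pass over all libraries. The fallen genes were not the same in each series. SLAMF7 fell in series 1 (-0.46, edgeR adjusted p = 8.59e-06) and was at 0.07 in series 2 (edgeR adjusted p = 0.384). SDC1 did not pass in series 1 (-0.34, edgeR adjusted p = 0.178), and JCHAIN did not pass in series 2 (-0.11, edgeR adjusted p = 0.338). Of 7 BLIMP1-repressed genes, over all libraries 4 rose (24.2% of all genes), SPIB fell (23.9% of all genes) and MYC and CIITA did not pass, with a median of 0.34. In series 2 alone 4 rose (20.2% of all genes) and 1 fell (17.9%). In series 1 alone 6 rose (25.8%) and 1 fell (24.6%). Whether either list followed PRDM1 was not tested. Over all libraries ID3, an inhibitor of E proteins, rose by 1.07 (edgeR adjusted p = 7.7e-05), and SYK, a B cell receptor kinase, by 0.34 (edgeR adjusted p = 2.08e-07).

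Around BCL6, its repressed targets moved in either direction. Of 18 such genes 8 rose (24.2% of all genes), 3 fell (23.9%) and 7 did not pass, with a median of 0.08. With the GC trend removed 7 rose and 5 fell, beside 3846 and 5258 of all genes. Without control replicates 5 and 6 together 8 rose and 5 fell, beside 4422 and 4245 of all genes. CD69, an activation marker, rose by 2.94 (edgeR adjusted p = 6.11e-14), the chemokine CCL3 by 5.26 (edgeR adjusted p = 2.01e-13) and the costimulator CD80 by 0.88 (edgeR adjusted p = 6.35e-09). CCND2, CD44 and CDKN1A fell. Of 9 corepressor and degradation genes, TBL1X rose by 0.19 (edgeR adjusted p = 0.00348), TBL1XR1 fell by 0.33 (edgeR adjusted p = 0.000774), and NCOR1 was at -0.11 (edgeR adjusted p = 0.0459), a call lost in 10 of 12 fits without 1 library, all but those without control replicate 5 or 6 (-0.11 to -0.08, edgeR adjusted p = 0.0669 to 0.131). Without both of these controls NCOR1 was at -0.17 (edgeR adjusted p = 0.000636). The NCOR1 call was also lost with replicates blocked by title number or by library name number (-0.11 each, edgeR adjusted p = 0.128 and 0.129). FBXO11, which targets BCL6 for degradation, was at 0.08 (edgeR adjusted p = 0.113), or 0.10 without IRF4 shRNA replicate 2 (edgeR adjusted p = 0.0403) and 0.15 with library size alone (edgeR adjusted p = 0.00661).

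Around PAX5 and EBF1, 5 of the 11 tested genes they are known to activate rose (24.2% of all genes) and 2 fell (23.9%), with a median of 0.14. CD22, a receptor that BLIMP1 is also known to repress, rose by 1.03 (edgeR adjusted p = 1.5e-12), CD72 by 0.94 (edgeR adjusted p = 9.53e-12) and CD79A, a signalling chain of the B cell receptor, by 0.77 (edgeR adjusted p = 2.86e-10). BLK, a SRC family kinase, fell by 1.07 (edgeR adjusted p = 1.11e-07). CD79B, BLNK, CD40 and LEF1 did not pass. Of the 3 tested genes that PAX5 is known to repress, XBP1 and JCHAIN fell (23.9% of all genes fell). Both are also counted among the fallen genes of the plasma cell programme. NOTCH1 was at -0.27 (edgeR adjusted p = 0.295) or, with the GC trend removed, -0.40 (edgeR adjusted p = 0.0127).

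Among partners of MEF2 factors, 5 of 6 class IIa HDACs and kinases rose and none fell (24.2% of all genes rose), with a median of 0.36 beside -0.01 over all genes. In series 2 alone, 2 of the 6 rose, HDAC4 and HDAC9 (20.2% of all genes rose), and in series 1 alone, 5 rose (25.8%). HDAC9, which binds MEF2 factors, averaged 16.5 ± 1.37 CPM with IRF4 shRNA and 8.79 ± 1.01 CPM in controls (log2 0.91, edgeR adjusted p = 2.6e-07, n = 6 each). HDAC4 rose by 0.98 (edgeR adjusted p = 6.33e-06) and MAPK7, the ERK5 kinase, by 0.40 (edgeR adjusted p = 0.00112). HDAC7 rose by 0.33 (edgeR adjusted p = 0.0223), a call lost without IRF4 shRNA replicate 3 or control replicate 2 (0.28 and 0.29, edgeR adjusted p = 0.0504 and 0.0511). It was also lost with replicates blocked by title number or by library name number (0.32 each, edgeR adjusted p = 0.0618 and 0.0619).

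HDAC7, HDAC5 and MAPK7 passed in series 1 alone and not in series 2. HDAC7 was at 0.00 in series 2 (edgeR adjusted p = 0.977) and 0.63 in series 1 (edgeR adjusted p = 7.5e-06), HDAC5 at 0.01 in series 2 (edgeR adjusted p = 0.919) and 0.55 in series 1 (edgeR adjusted p = 0.000193), and MAPK7 at 0.18 in series 2 (edgeR adjusted p = 0.189) and 0.63 in series 1 (edgeR adjusted p = 1.64e-05). The difference itself was called for 4 of the 6 genes, beside 14% of all genes: -0.64 for HDAC7 (edgeR adjusted p = 0.00964), -0.63 for HDAC4 (edgeR adjusted p = 0.0248), -0.55 for HDAC5 (edgeR adjusted p = 0.0219) and -0.46 for MAPK7 (edgeR adjusted p = 0.0199). With the GC trend removed 2 of these calls were left, HDAC7 at -0.41 (edgeR adjusted p = 0.00771) and HDAC4 at -0.52 (edgeR adjusted p = 0.0333), while HDAC5 was at -0.11 (edgeR adjusted p = 0.525) and MAPK7 at -0.21 (edgeR adjusted p = 0.211). In that fit HDAC5, whose longest transcript holds 61.2% GC, was at 0.15 over all libraries (edgeR adjusted p = 0.0209), against 0.28 as counted (edgeR adjusted p = 0.0301). Without control replicates 5 and 6 together 0 of the 6 differences passed (edgeR adjusted p = 0.0838 for HDAC7), and HDAC7 and MAPK7 then passed in series 2, at 0.23 (edgeR adjusted p = 0.0146) and 0.37 (edgeR adjusted p = 0.0115).

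Of the 5 BACH2 partners and targets, MAFF, a small MAF protein, rose to 3.33 ± 0.370 CPM with IRF4 shRNA, against 1.13 ± 0.274 CPM in controls (log2 1.55, edgeR adjusted p = 5.81e-07, n = 6 each). BACH1, the paralog of BACH2, rose by 0.29 (edgeR adjusted p = 0.00325), or by 0.19 without control replicates 5 and 6 together (edgeR adjusted p = 0.00446), and HMOX1, a heme oxygenase gene that BACH factors are known to repress, fell by 0.34 (edgeR adjusted p = 0.00325). MAFG was at -0.02 (edgeR adjusted p = 0.797), or -0.11 with the GC trend removed (edgeR adjusted p = 0.0305). Of 5 tested E protein partners and ID inhibitors, ID3 rose and TCF4, the E protein paralog of TCF3, averaged 640.3 ± 44.6 CPM with IRF4 shRNA and 881 ± 92.9 CPM in controls (log2 -0.46, edgeR adjusted p = 3.85e-05). TCF12 was at -0.15 (edgeR adjusted p = 0.0904). It passed with the GC trend removed (-0.17, edgeR adjusted p = 0.0371), without control replicates 5 and 6 together (-0.20, edgeR adjusted p = 0.024) and with series as a covariate (-0.15, edgeR adjusted p = 0.0232). ID1 was at -0.45 (edgeR adjusted p = 0.309).

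Of the 7 paralogs of the members tested 2 rose (24.2% of all genes) and 2 fell (23.9%), with a median of -0.01. POU2F1 (OCT1) averaged 75.0 ± 4.43 CPM with IRF4 shRNA and 109 ± 10.9 CPM in controls (log2 -0.54, edgeR adjusted p = 5.34e-06, n = 6 each). MEF2D rose by 0.30 (edgeR adjusted p = 9.22e-06) and FOXP2, at 3.21 ± 0.591 CPM with IRF4 shRNA and 2.31 ± 0.497 CPM in controls, by 0.47 (edgeR adjusted p = 0.0186), or 0.41 without control replicates 5 and 6 together (edgeR adjusted p = 0.0507). MEF2B, a factor mutated in germinal centre lymphomas, fell by 0.52 (edgeR adjusted p = 0.0225). The MEF2B call was lost in 5 of 12 fits without 1 library, those without IRF4 shRNA replicate 4, 5 or 6 or control replicate 5 or 6 (-0.48 to -0.40, edgeR adjusted p = 0.0513 to 0.0634), and without both of these controls MEF2B was at -0.25 (edgeR adjusted p = 0.144). It was also lost with replicates blocked by title number or by library name number (-0.48 each, edgeR adjusted p = 0.089 and 0.0862).

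Of 13 other B cell transcription factors, 5 rose (24.2% of all genes) and 7 fell (23.9%), with a median of -0.13. LMO2, a germinal centre factor, averaged 110 ± 20.5 CPM with IRF4 shRNA and 28.8 ± 1.43 CPM in controls (log2 1.94, edgeR adjusted p = 8.31e-10, n = 6 each). GFI1 rose by 2.0 (edgeR adjusted p = 3.04e-09), from an average of 1.57 CPM in controls to 6.24 CPM with IRF4 shRNA. SPI1 (PU.1), an ETS partner of IRF4, rose by 1.68 (edgeR adjusted p = 2.23e-06). IKZF1, the Ikaros gene, fell by 0.28 (edgeR adjusted p = 1.1e-06).

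Across the 12 libraries the genes whose log2 level followed BCL6 most closely were HSPH1, ZNF106 and NBPF1, among 9454 genes searched. The SD of their log2 difference from BCL6 was 0.0719 to 0.0749, beside an SD of 0.276 for BCL6 itself. Those that followed PRDM1 most closely were BCL2L11, SCD and LYRM2, with an SD of 0.0330 to 0.0401 beside 0.146 for PRDM1. These rank likeness over libraries that share their groups and are descriptions.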

How the data were processed

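Poly(A) RNA of TMD8 cells was sequenced as paired-end reads of a stranded kit, per the labels' protocols. STAR, HTSeq and the build hg38 were named, per the submitters' processing notes, without versions. The deposited values were estimated counts for 26318 genes, not normalized by the authors, and 66.6% were whole at a tolerance of 1e-06. The annotation, the step that gave fractions and the use of strand were not given in the sources used here, so reads of near-identical or overlapping genes may have been split. Gene positions are those of the deposited table, with the end reduced by 1. Of the gene names, 24758 matched GENCODE release 29, which gave transcript length and GC content.

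Counts were rounded and tested with edgeR 4.0.16 (R 4.3.3; quasi-likelihood test, TMM, filterByExpr with minimum count 10), leaving 16437 genes. Benjamini-Hochberg adjusted p under 0.05 over all of them was called, and log2 fold changes are IRF4 shRNA over control. Fits covered all 12 libraries without a covariate, each series, and series by group. In the last, a positive value is a higher signed log2 fold change in series 2. Alternatives were DESeq2 1.42.0 (size factors, Wald test), library size alone, no filter, a smooth GC trend removed per library (GC known for 15789 genes), series as a covariate, replicate blocks, and libraries left out. Scripts were tested on simulated counts with 200 genes changed, far fewer than the 7918 called in these data. Of genes changed by 0.5 on the log2 scale, 49% were recovered over all libraries and 28% in each series. For the difference between series 11% were recovered. At a change of 1 these shares were 84%, 74% (series 2), 78% (series 1) and 61%. False calls made up 4.32% over all libraries, 10.5% in series 2, 9.4% in series 1 and 6.49% for the difference.

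The members and lists were chosen with earlier results of these data known. The test of a difference between series was extended to the MEF2 partner list after its values were seen. Named genes were the members, IRF4, up to 4 genes with the smallest p per list, and the 3 genes closest to BCL6 and to PRDM1 among those with a mean of at least 10 CPM. Other genes named among passed or not passed members of a list were named to complete its count. Within a group and series, every pair of libraries differed beyond counting noise (chi-square per degree of freedom 2.73 to 31.9), and each was counted as 1 sample. Floors of 3 counts cover counting error alone, as the reads carried no molecular identifier. A few of the listed genes are not reported here by name.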

Additional observations from a re-analysis of the deposited data

Results flagged for a closer look

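The effect on PRDM1 differed between the library series, with a log2 difference (series 2 minus series 1) of 0.35 (edgeR adjusted p = 0.00549). The effect on TCF3 differed by -0.62 (edgeR adjusted p = 0.0221), a call lost with the GC trend removed. The effect on FOXP1 differed by 0.19 (edgeR adjusted p = 0.0361), a call also lost with the GC trend removed. The level of IRF4, the target, differed in its effect by 0.46 (edgeR adjusted p = 0.0011). POU2F2 in control replicate 6, at 1635 CPM, stood far from the other 5 controls, which were at 1487 to 1533 CPM, in 1 of 22 groups of 6 examined. Chance puts about 1 in 20 groups past this limit. Effects on 4 genes around MEF2 factors were also lower in series 2, with log2 differences of -0.63 for HDAC4, -0.55 for HDAC5, -0.64 for HDAC7 and -0.46 for MAPK7 (edgeR adjusted p = 0.0248, 0.0219, 0.00964 and 0.0199), and the HDAC5 and MAPK7 calls were lost with the GC trend removed.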

How the results depend on the processing

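Of the member results over all libraries, BCL6, BACH2, PAX5, EBF1, POU2AF1 and MEF2C kept their direction and call in all 21 alternatives, and IRF4 did too. Between 6 and 9 members and 6918 to 9104 genes were called there, against 9 and 7918. Each result for a single gene was compared with its main fit under each alternative, so a gene counts many times. Of these comparisons 102 lost and 12 gained a call, 14 changed sign and 1500 stayed the same. The 21 for IRF4 over all libraries, counted apart, stayed the same too. The number of genes whose effect differed between series was 2308, against 1394 with the GC trend removed, 206 without control replicates 5 and 6 together, and 736 to 5357 without single libraries. The same count among members was 3, against 1 with the GC trend removed, 1 without control replicates 5 and 6 together, and 1 to 5 without single libraries. Calls were higher with IRF4 shRNA in 50.3% with TMM, 63.9% with library size alone and 42.2% with the GC trend removed, where the median of all genes was -0.01, 0.07 and -0.05. Series 2 gave 53.0%, 63.6% and 44.1% under the same 3 scalings, series 1 51.2%, 63.4% and 40.6%, and the difference between series 36.1%, 36.8% and 56.2%.

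Sign changes concerned results that had not passed. With library size alone, log2 fold changes became 0.06 for MAFG, 0.06 for PRDM1 in series 2, and 0.02 for TCF3 and 0.02 for FOXP1 in series 1. MAFG became 0.02 without IRF4 shRNA replicate 5, 0.02 without replicate 6 and 0.01 without control replicate 1 (range -0.03 to 0.02 over single libraries left out). TCF3 in series 1 became 0.07 without control replicate 1 (range -0.13 to 0.07), and POU2F2 in series 2 became -0.01 without control replicate 5. The difference between series became 0.06 for PAX5 with the GC trend removed, 0.05 and 0.03 for PAX5 without control replicate 1 or 6 (range -0.07 to 0.05), 0.03 for EBF1 without control replicate 1 (range -0.20 to 0.03), and 0.05 for BCL6 without control replicate 4 (range -0.13 to 0.05). The cause was not tested.

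Same-numbered libraries did not deviate together (r of deviations from group means -0.26 to 0.13). This cannot show whether the numbers stood for libraries set up together, and the main fits used no pairing. With the replicate block by title number 6942 genes and 6 members were called, and with the block by library name number 6918 genes and 7 members.

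Depth limits BACH2, with 14 to 27 counts per control library.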
